A study of Mus musculus with 8 samples.

Results

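The common gamma chain cytokine receptors were examined in splenic CD8+ T cells and natural killer (NK) cells of Tyk2-/- mice. The family was taken as 7 receptor genes, Il2rg, Il2ra, Il2rb, Il4ra, Il7r, Il15ra and Il21r, chosen by name, of the 54232 genes in the table of counts. RNA-seq counts were used for 3 libraries of each cell type, each made from cells sorted from the pooled spleens of 3 littermates. The mice were labelled C57BL/6, which the study's methods give as C57BL/6N, and were 8 to 12 weeks of age and untreated (homeostatic). Both cell types carried the Tyk2 knockout in the whole animal, so no comparison here has a wild-type arm. The allele was either B6N.129P2-Tyk2tm1Biat or its version deleted with a CMV-Cre, and the labels do not tell which of these a library carried. Wild-type CD8+ T cells were not used here, because 3 columns carry that name against 2 samples.

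Total counts ranged from 20957384 to 26144478 in CD8+ T cells and from 32848432 to 38573550 in NK cells. Genes with a count of 1 or more numbered 12893 to 14042 per CD8+ T cell library and 17224 to 17373 per NK library. Spread between libraries was larger in CD8+ T cells, with a biological coefficient of variation (the relative spread left after counting noise) of 1.43 against 0.855 in NK cells. Tyk2 itself, a Janus kinase, was counted 105, 919 and 554 times in the CD8+ T libraries and 3864, 4245 and 3207 times in the NK libraries (log2 fold change 2.51 ± 0.75 SE, NK over CD8+, edgeR quasi-likelihood test with Benjamini-Hochberg adjusted p = 0.075). It was called without CD8+ T cell library 1 (log2 fold change 2.03, adjusted p = 0.045) or 2 (3.38, adjusted p = 0.040), by DESeq2 (adjusted p = 0.0025) and by limma voom (adjusted p = 0.046). The labels do not say which exons the allele lacks, so the gene's summed count does not check the genotype. The sorts matched their labels at Ncr1 and Cd8b1. Ncr1 was at 0 in every CD8+ T cell library and between 137008 and 195219 counts in NK cells, and Cd8b1 was between 60044 and 80266 counts in CD8+ T cells and at 0 in every NK library. Other markers separated less cleanly. Klrb1c had 1, 76 and 525 counts in the CD8+ T libraries and 46536, 60933 and 57695 in the NK libraries. Tyrobp had 0, 544 and 0 counts in the CD8+ T libraries and was not called (edgeR adjusted p = 0.054). Cd3e had 1009, 725 and 711 counts in the CD8+ T libraries and 276, 509 and 227 in the NK libraries, and was not called (edgeR adjusted p = 0.12).

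Receptors of this family share IL-2Rγ, the common gamma chain encoded by Il2rg, which is bound by the kinase JAK3. Each cytokine adds a chain of its own, bound by JAK1: IL-2Rβ for IL-2 and IL-15, IL-7Rα for IL-7, IL-4Rα for IL-4 and IL-21R for IL-21, and the signal passes mainly through STAT5, STAT6 or STAT3. IL-2Rα and IL-15Rα bind their cytokine with high affinity and do not signal by themselves. Naive CD8+ T cells are known to live on IL-7, whereas NK cells and memory CD8+ T cells depend on IL-15.

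Stretches before the RefSeq start site are shown for the shared chain and for the pair of specific chains that were called higher in CD8+ T cells. For Il21r and Il2rg the sequences are the 250 bases before the start site in RefSeq, build GRCm38.p6, written 5′ to 3′ on the strand of the gene. They lie at chr7:125603179-125603428 on the plus strand for Il21r and at chrX:101268256-101268505 on the minus strand for Il2rg. For Il7r 30 bases around a motif are shown, at chr15:9530000-9530029 on the minus strand. Its RefSeq start lies 300 bases inside the gene as GENCODE annotates it, since a GENCODE transcript starts further upstream. Capitals mark matches to motifs named in the next paragraph.
Il7r: agttcaggagcTTCAGGGAAtaccaagatg
Il21r: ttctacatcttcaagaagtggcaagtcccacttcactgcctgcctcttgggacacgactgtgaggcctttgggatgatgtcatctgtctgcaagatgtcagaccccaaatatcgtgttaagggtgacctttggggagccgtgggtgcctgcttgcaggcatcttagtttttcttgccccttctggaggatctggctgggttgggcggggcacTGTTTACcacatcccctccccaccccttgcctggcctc
Il2rg: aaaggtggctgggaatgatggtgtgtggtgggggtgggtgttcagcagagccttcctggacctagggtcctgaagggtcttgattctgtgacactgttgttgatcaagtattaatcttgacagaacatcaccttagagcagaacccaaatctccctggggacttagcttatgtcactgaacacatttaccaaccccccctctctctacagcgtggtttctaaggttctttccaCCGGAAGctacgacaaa

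Promoter windows of 300 bases (250 before and 50 after the start) were found for 6 of the 7 receptor genes, with 2 start sites for Il15ra, and Il2rb was not searched. Short motifs were searched on both strands, and none overlaps another in the matches found. The STAT site TTCNNNGAA was found in the Il7r window, 142 bases before the RefSeq start and inside the gene as GENCODE annotates it. It was present in 8.3% of all 32851 mouse promoters of this length. The ETS site CCGGAAG, bound by GABP, lay 17 bases before the start of Il2rg and 104 bases before one start of Il15ra, and was present in 8.86% of promoters. The forkhead site GTAAACA was found on the opposite strand of Il21r, 38 bases before the start, and in 3.65% of promoters. The RUNX site TGTGGTT was found in the Il7r window past the start and in 5.27% of promoters. The T-box site AGGTGTGA, present in 1.28% of promoters, was in none of the windows searched. These are matches of letters and were not tested for binding.

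Il2rb was higher in NK cells, and Il7r and Il21r were higher in CD8+ T cells. NK cells held 49.96-fold more Il2rb, whereas CD8+ T cells held 3.267-fold more Il7r and 5.223-fold more Il21r. The shared chain Il2rg was abundant in both cell types and 1.598-fold higher in CD8+ T cells, which did not pass the threshold. Il4ra and Il15ra differed widely between the CD8+ T cell libraries and were not called, and Il2ra was at or close to 0. Normalised counts below are counts scaled to a common library size, with the libraries of a cell type given in a fixed order.

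**Figure D1:**
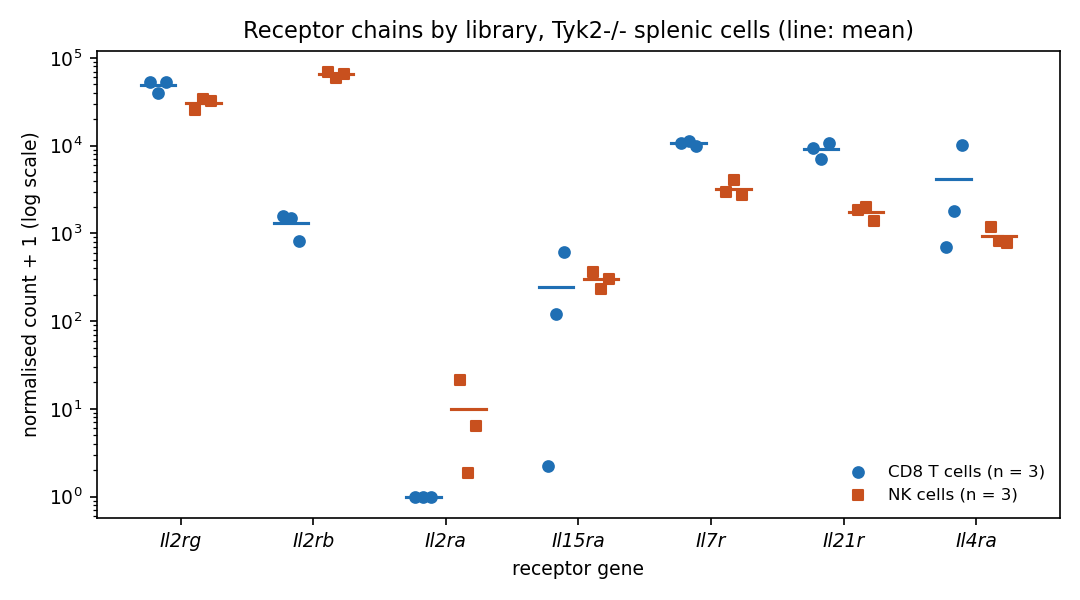
Normalised counts plus 1 (log axis) of the 7 receptor genes in each library of Tyk2-/- CD8+ T cells (circles, n = 3) and NK cells (squares, n = 3), with a line at the mean. Il2rb separates the cell types upwards in NK cells, Il7r and Il21r separate them downwards, and the CD8+ T cell libraries are spread widely for Il4ra and Il15ra.

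Il2rg (ENSMUSG00000031304, GRCm38 chrX:101264378-101268255, minus strand) encodes the common gamma chain that gives the family its name. Its normalised counts were 53263, 40095 and 52908 in the CD8+ T libraries and 25316, 34118 and 32122 in the NK libraries. The lowest CD8+ T cell library was above the highest NK library, so the groups did not overlap. The mean was 48755 ± 7502 (SD, n = 3) against 30519 ± 4615 (SD, n = 3), and the log2 fold change was -0.68 ± 0.19 (SE). This was not called by edgeR (adjusted p = 0.064). It was called by DESeq2 (log2 fold change -0.60, adjusted p = 0.039), by limma voom with a spread per cell type (adjusted p = 0.041) and by edgeR without CD8+ T cell library 2 (log2 fold change -0.77, adjusted p = 0.032).

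Il2rb (ENSMUSG00000068227, GRCm38 chr15:78479256-78495271, minus strand) encodes the signalling chain shared by the receptors for IL-2 and IL-15. Its normalised counts were 1573, 1507 and 812.8 in the CD8+ T libraries and 69171, 59340 and 66007 in the NK libraries. No CD8+ T cell library came near the NK range, in which the highest library exceeded the lowest only 1.166-fold. The means were 1298 ± 421.3 and 64839 ± 5019 (SD, n = 3 each), and NK cells were higher by 5.64 ± 0.32 (SE) on the log2 scale (edgeR adjusted p = 0.00035).

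Il15ra (ENSMUSG00000023206, GRCm38 chr2:11705290-11734317, plus strand) encodes the chain that holds IL-15 for presentation to neighbouring cells. Its raw counts were 1, 97 and 627 in the CD8+ T libraries and 372, 280 and 339 in the NK libraries. The NK libraries were alike, whereas the CD8+ T cell libraries ran from the floor of 3 counts or fewer, taken here as not detectable, to above every NK library. The groups overlapped, and the log2 fold change of 0.31 ± 1.62 (SE) was not called (edgeR adjusted p = 0.93). It was -0.25 without CD8+ T cell library 1 and 2.30 without CD8+ T cell library 3, neither of them called.

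Il2ra (ENSMUSG00000026770, GRCm38 chr2:11642807-11693193, plus strand) encodes CD25, the high-affinity IL-2 chain of activated and regulatory T cells. No count was found in any CD8+ T cell library, and 21, 1 and 6 counts were found in the NK libraries. The gene was under the filter of a mean normalised count of 10 and was therefore not tested. In the edgeR fit without a filter, which tested all 7 receptor genes, it was not called. Foxp3, which marks regulatory T cells, was at 0, 4 and 0 counts in CD8+ T cells and at 0 in NK cells.

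Il7r (ENSMUSG00000003882, GRCm38 chr15:9505788-9530176, minus strand) encodes CD127, the specific chain of the IL-7 receptor. Its normalised counts were 10599, 11386 and 9817 in the CD8+ T libraries and 2983, 4047 and 2704 in the NK libraries. The libraries of each cell type were close to each other, within 1.16-fold for CD8+ T and 1.497-fold for NK, and the groups did not overlap. The means were 10601 ± 784.4 and 3245 ± 708.8 (SD, n = 3 each), with a log2 fold change of -1.71 ± 0.22 (SE, edgeR adjusted p = 0.0061). As these are bulk samples, fewer cells of a type and less RNA per cell cannot be told apart. Markers of type 2 and type 3 innate lymphoid cells, which carry IL-7Rα, were low in NK libraries. The summed normalised count of the 3 markers was 85.63, 85.44 and 17.98 and Il23r was at 0, and the library with the lowest sum was also the one with the lowest Il7r count. Their part in the result was not tested.

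Il21r (ENSMUSG00000030745, GRCm38 chr7:125603429-125633570, plus strand) encodes the specific chain of the IL-21 receptor. Its normalised counts were 9436, 7119 and 10648 in the CD8+ T libraries and 1837, 1973 and 1397 in the NK libraries. Every CD8+ T cell library was above every NK library. The means were 9068 ± 1793 and 1736 ± 301.2 (SD, n = 3 each), and the log2 fold change was -2.38 ± 0.26 (SE, edgeR adjusted p = 0.0031).

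Il4ra (ENSMUSG00000030748, GRCm38 chr7:125552120-125579474, plus strand) encodes the chain that binds IL-4 and also serves IL-13. Its normalised counts were 690, 1778 and 10065 in the CD8+ T libraries and 1194, 822.6 and 772.2 in the NK libraries. CD8+ T cell library 3 was 14.59-fold above library 1, which lay below every NK library, so the groups overlapped. The log2 fold change of -2.17 ± 0.95 (SE) was not called (edgeR adjusted p = 0.18), and it was -0.41 ± 0.56 (SE, adjusted p = 0.63) without library 3. B cells are known for high Il4ra, and the summed normalised count of 5 B cell markers was 6661, 4755 and 940.6 in the CD8+ T libraries and 592.6, 1826 and 246.3 in the NK libraries. It was thus lowest among the CD8+ T cells in the library with the highest Il4ra. In the CD8+ T libraries this sum was mostly Cd79b, with normalised counts of 5739, 4725 and 940.6. Cd79a and Ms4a1 were at 0 in CD8+ T cell library 3, against 347 and 405 counts in library 1 and 17 and 6 in library 2. The summed markers of dendritic cells were 0, 52.74 and 438.4 in CD8+ T cells, mostly Zbtb46. Those of macrophages and monocytes were 2.447, 69.9 and 142.2, nearly all Cd68 in libraries 2 and 3, so both sums were highest in library 3. Of the 6 macrophage and monocyte markers, 5 were at 3 counts or fewer in every CD8+ T cell library. Of the 5 dendritic cell markers, Flt3, Siglech and Clec9a were at 0 in all CD8+ T cell libraries. Their part in the Il4ra and Il15ra values was not tested.

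**Figure D2:**
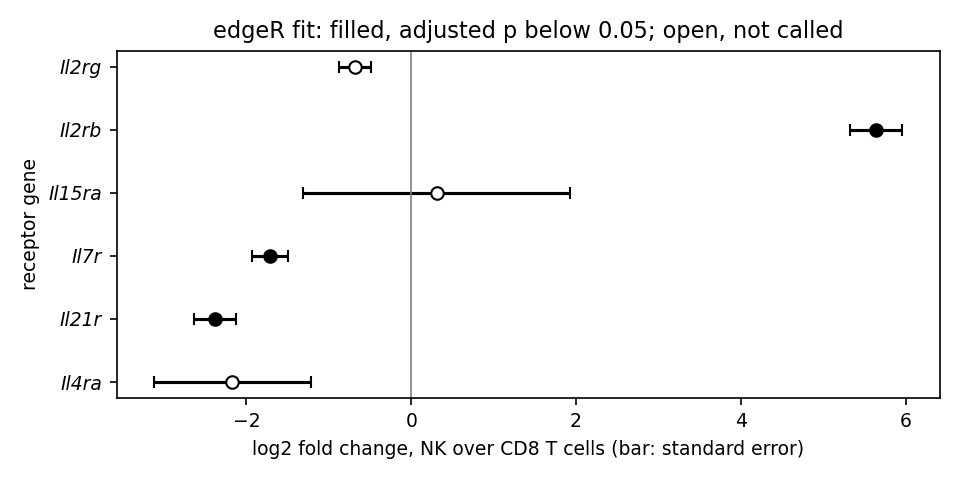
Log2 fold change, NK over CD8+ T cells (horizontal axis), of the 6 receptor genes tested, with bars for the standard error of the edgeR fit over 3 libraries of each cell type. Filled points (Il2rb at 5.64, Il7r at -1.71 and Il21r at -2.38) have an adjusted p below 0.05, and open points were not called.

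Of the 7 receptor genes, 6 passed the filter and were tested. By edgeR, 3 were called in either direction, against 11.4% of the 14062 genes tested. Il2rb was the 1 gene called higher in NK cells, against 6.24% of all genes, and Il7r and Il21r were the 2 called higher in CD8+ T cells, against 5.14%. For 4 of the 6 every library of one cell type lay above every library of the other, which was so for 41.6% of all genes tested. The median log2 fold change was -1.19 over the 6 genes and 0.1 over all genes tested. The median ratio of highest to lowest library in CD8+ T cells was 1.716 for the 6 genes and 3.01 for the 9179 genes tested that had a count in every CD8+ T cell library. For NK cells the same ratio was 1.455 for the 6 genes and 1.831 for the 12234 genes tested that had a count in every NK library. The calls of Il2rb, Il7r and Il21r were kept in all 10 alternative fits.

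Levels were compared between the chains as normalised counts per kilobase of exon. In CD8+ T cells Il2rg came first at 29195 ± 4492 (SD, n = 3), far above Il21r at 3567 ± 705.4 and Il7r at 2995 ± 221.6, which overlapped each other. Il4ra at 794.8 ± 975.5, Il2rb at 302.7 ± 98.28 and Il15ra at 105.8 ± 140.1 followed, and each overlapped its neighbour. In NK cells Il2rg at 18275 ± 2763 and Il2rb at 15125 ± 1171 overlapped at the top of the order. Il7r at 916.7 ± 200.2 overlapped Il21r at 682.9 ± 118.5, and Il4ra at 176.9 ± 43.82 overlapped Il15ra at 131.1 ± 27.86. Il2ra was last in both cell types, at 0 in CD8+ T cells and at 1.706 ± 1.969 in NK cells. The summed level of the 7 genes was 36960 ± 5447 in the CD8+ T libraries and 35309 ± 1787 in the NK libraries, less apart than the SD of CD8+ T cells.

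The make-up of this sum differed between the cell types. Il2rg made up 78.95% ± 2.304 (SD, n = 3) of it in the CD8+ T libraries and 51.58% ± 5.39 in the NK libraries. Il2rb held 0.8479% ± 0.3492 in the CD8+ T libraries and 43% ± 5.294 in the NK libraries. Il7r held 8.291% ± 1.926 and 2.593% ± 0.5165, and Il21r 9.603% ± 0.5637 and 1.94% ± 0.3671. For each of these 4 genes no library of one cell type fell in the range of the other. Il4ra ran from 0.3358% to 4.669% in CD8+ T cells and from 0.4056% to 0.6832% in NK cells, with overlap.

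**Figure D3:**
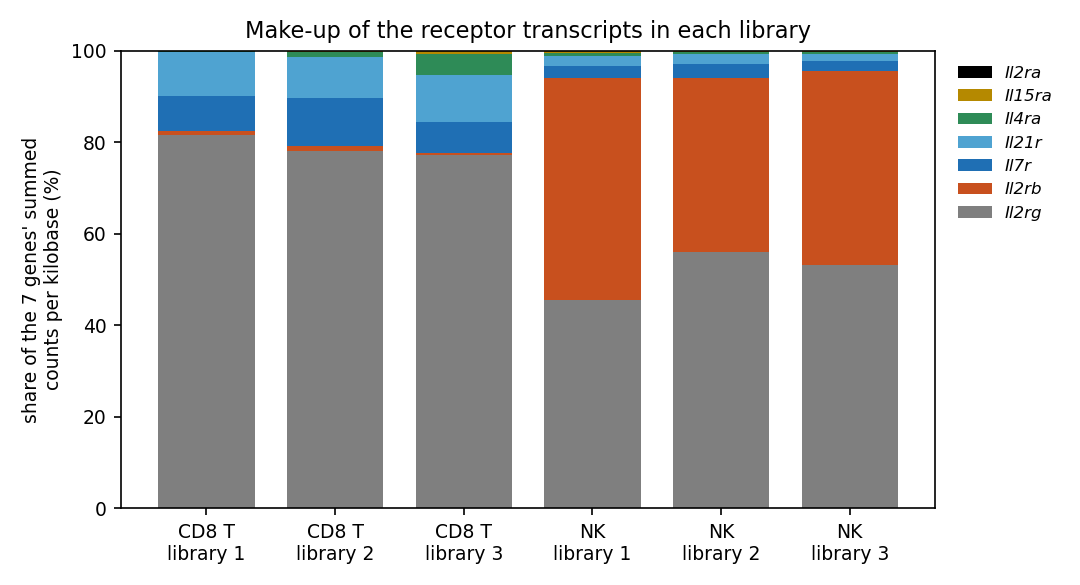
Share (%) of each receptor gene in the summed normalised counts per kilobase of the 7 genes, as stacked bars from 0 to 100 for the 6 libraries. Il2rb fills between 37.97% and 48.53% of the bar in NK cells and at most 1.143% in CD8+ T cells, where Il2rg fills between 77.25% and 81.57%.

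Ratios of chains within a library do not depend on how libraries were scaled, and 7 were compared by a two-sided exact permutation test. With 3 libraries against 3 the smallest p this test can give is 0.1, so no ratio could pass 0.05. Il7r was 8.155, 9.145 and 14.62 times as abundant per kilobase as Il2rb in CD8+ T cells, and 0.05224, 0.08261 and 0.04962 times as abundant in NK cells. On the log2 scale the ratio was 3.36 ± 0.45 against -4.06 ± 0.40 (SD, n = 3 each), a difference of -7.43 (exact p = 0.1, adjusted p = 0.14 over the 7 ratios). The sign of the ratio was thus opposite in all libraries of the cell types.

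Il2rb was 1.064, 0.6775 and 0.8005 times as abundant as Il2rg in NK cells and 0.01151, 0.01465 and 0.005988 times as abundant in CD8+ T cells, a log2 difference of 6.37 (exact p = 0.1). Il7r and Il21r were lower relative to Il2rg in NK cells, by log2 differences of -1.05 and -1.71 (exact p = 0.1 each), and neither overlapped between the cell types. Il21r kept nearly the same ratio to Il2rg among the libraries from CD8+ T cells, with 0.1164, 0.1167 and 0.1322. The ratios of Il4ra (log2 difference -0.67, exact p = 0.8) and Il15ra (3.21, exact p = 0.3) to Il2rg overlapped. The log2 difference for Il4ra was 0.33 without CD8+ T cell library 3. The ratio of Il2ra to Il2rg rests on 0 counts in CD8+ T cells and on the 0.5 added to each count, and is not read further.

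Of the receptor genes, some are neighbours in the genome. Il4ra and Il21r lie 24.0 kb apart on chromosome 7 in the same orientation with no annotated gene between them. In CD8+ T cell library 3 Il4ra was 5.66 times its level in library 2, whereas Il21r was 1.50 times its level there. Il2ra and Il15ra lie 12.1 kb apart on chromosome 2, also in the same orientation and with no gene between them. Il2ra was at 0 in CD8+ T cell library 3, where Il15ra had 627 counts. Gm44876 is annotated antisense to Il4ra. Gm20489, annotated as protein-coding, overlaps Il2rg on the same strand, and Gm37881 overlaps Il2ra on the same strand. Whether the counting used strand is not given in the sources used here, so reads of Il4ra and its antisense partner cannot be told apart. How reads shared by overlapping genes were counted is not given either, so whether Il2rg lost reads in this way cannot be told.

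The genes whose log2 normalised counts followed each receptor gene most closely over the 6 libraries are given as a description. The 6 points fall into 2 cell types, so genes that differ between the cell types in the same direction can correlate for that alone. The counts had been scaled for depth. Il2rb was most like Limk1 (Pearson r = 1.0000) and Arl4d (0.9996), and Il7r most like Mrpl33 (0.9989) and Pcgf5 (0.9983). In the CD8+ T libraries Limk1 (1, 1 and 0 counts) and Arl4d (2, 1 and 0 counts) were at the floor of 3 counts or fewer. Il21r was closest to Prdx3 (0.9984) and Gm11346 (0.9975), and Il2rg to Inpp5b (0.9951) and Gm42047 (0.9908). For Il4ra the nearest genes were Shld1 (0.9980) and Thy1 (0.9917), and for Il15ra they were Vps51 (0.9984) and Cluh (0.9982).

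The cytokines that bind these receptors were mostly not detected in the sorted cells. Of 7 ligand genes, Il4, Il9, Il21 and Tslp were at 0 in all 6 libraries and Il7 had at most 2 counts. Il15, the cytokine that NK cells depend on, was at 0 in every CD8+ T cell library and at 283, 79 and 149 counts in NK cells. It was called higher in NK cells by edgeR (adjusted p = 0.049), with an NK mean 46.38-fold above a floor of 3 counts in each CD8+ T cell library. Such a fold allows for counting error only and is not a lower bound. Of the 14062 genes tested, 4883 were at 0 in a CD8+ T cell library and 1828 in an NK library. The call of Il15 was lost without CD8+ T cell library 1 (adjusted p = 0.054) or 3 (0.052), whichever NK library was left out (0.14 to 0.15), and in 2 of the other 4 fits. Il2 had 8, 4 and 1 counts in the CD8+ T libraries and 30, 30 and 26 in the NK libraries, which did not overlap and were not called (log2 fold change 2.29 ± 1.40 SE, edgeR adjusted p = 0.31).

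Among 4 other chains of the family and its relatives, Il13ra1 and Il13ra2 were at 0 and Il9r had 1 count in all. Crlf2, the TSLP receptor chain that pairs with IL-7Rα, had 121, 77 and 1 counts in the CD8+ T libraries and 1035, 747 and 697 in the NK libraries. Its log2 fold change of 3.21 ± 1.47 (SE) was not called by edgeR (adjusted p = 0.19) and was called by DESeq2 (adjusted p = 0.037).

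The kinases bound to the chains and the STATs of the family formed a list of 6 genes, all tested. By edgeR 1 was called in favour of NK cells and 5 in neither direction (16.7% called, against 11.4% of all genes tested), with a median log2 fold change of -0.44 (0.1 over all genes). Jak1, the kinase on the specific chains, was higher in NK cells, with normalised counts of 48663 ± 2957 against 18625 ± 4610 (SD, n = 3 each, log2 fold change 1.39 ± 0.20 SE, edgeR adjusted p = 0.010). Jak3, the kinase on the common gamma chain, was at 1497 ± 111.6 and 1267 ± 461.8 (log2 fold change 0.24, adjusted p = 0.73), with overlap.

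The main STATs of the family were not called. The log2 fold change was -0.48 for Stat5a (edgeR adjusted p = 0.55), -0.39 for Stat5b (0.50), -0.51 for Stat3 (0.52) and -1.04 for Stat6 (0.084), and Stat6 was called by DESeq2 (adjusted p = 0.033). Stat3 turned to 0.10 without CD8+ T cell library 1. Jak1 lost its call without NK library 1 (adjusted p = 0.056) or 3 (0.053).

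Of 12 adaptor and PI3K genes, 11 were tested, and edgeR called 1, or 9.09% against 11.4% of all genes tested. DESeq2 called 2. Gab2, an adaptor that links the receptors to PI3K, was at 0 in every CD8+ T cell library and at 337, 540 and 576 counts in NK cells (edgeR adjusted p = 0.019, NK mean 126.6-fold above the floor). Its call was lost whichever NK library was left out (adjusted p 0.11 to 0.12). The median log2 fold change of the list was 0.02. Lck, the kinase bound to T cell coreceptors and also tied to IL-2Rβ, was at 80404 ± 14021 in the CD8+ T libraries and 75081 ± 5541 in the NK libraries (log2 fold change -0.10, adjusted p = 0.74).

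Inhibitors of the receptors, their kinases and the STATs formed a list of 13 genes. Of these, all tested, 4 were called up in NK cells, 1 was called up in CD8+ T cells and 8 were not called (38.5% called, against 11.4% of all genes tested), with a median log2 fold change of 1.15. Socs2, a feedback inhibitor of cytokine receptors, was at 0 in every CD8+ T cell library and at 534, 980 and 685 counts in NK cells (edgeR adjusted p = 0.012, NK mean 190.8-fold above the floor). Inpp5d, the phosphatase SHIP1, was higher in NK cells by 3.39 ± 0.32 (SE) on the log2 scale (adjusted p = 0.0018).

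The phosphatases Ptprc (CD45, log2 fold change 1.18, edgeR adjusted p = 0.0053) and Ptpn1 (1.15, adjusted p = 0.014) were also higher in NK cells. Pias1, a member of the family of STAT inhibitors, was higher in CD8+ T cells (log2 fold change -1.19, adjusted p = 0.018). Cish, the inhibitor most closely tied to STAT5, was at 258, 435 and 0 counts in CD8+ T cells and at 181, 401 and 401 counts in NK cells, with no difference called (log2 fold change 0.04 ± 1.81 SE, adjusted p = 0.99). Calls were lost whichever NK library was left out for Socs2 (adjusted p 0.079 to 0.088) and Pias1 (0.081 to 0.11), and without NK library 1 (0.086) or 2 (0.083) for Ptpn1.

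Genes known as targets of STAT5 or STAT6 formed a list of 15, all tested. By edgeR 5 were higher in NK cells and 10 were not called (33.3% called, against 11.4% of all genes tested), with a median log2 fold change of 1.22. DESeq2 called 9 higher in NK cells. The number called higher in CD8+ T cells was 0 by edgeR and by limma and 1 by DESeq2. In edgeR 3 (Mcl1, Myc and Pim2) had an unadjusted p under 0.05 in that direction, against 9 in the direction of NK cells. With RLE factors, another scaling of the libraries, these numbers were 1 and 9. Id2, which NK cells need to develop, had a log2 fold change of 4.90 ± 0.23 (SE, adjusted p = 0.00023), and Prf1, encoding perforin, of 3.28 ± 0.36 (SE, adjusted p = 0.0032).

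The kinase gene Pim1 (log2 fold change 3.66, edgeR adjusted p = 0.037) and the cyclin genes Ccnd3 (1.6, adjusted p = 0.0029) and Ccnd2 (0.74, adjusted p = 0.047) were the other called targets. The survival gene Bcl2 was at 10095 ± 2164 in the CD8+ T libraries and 12606 ± 1177 in the NK libraries and was not called (log2 fold change 0.32, adjusted p = 0.33). Pim1 lost its call whichever NK library was left out (edgeR adjusted p = 0.15), without a filter (0.065) and with limma voom (0.051). Ccnd2 lost it without CD8+ T cell library 1 (0.070) or 2 (0.069), whichever NK library was left out (0.14 to 0.15) and without a filter (0.054).

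Transcription factors tied to these receptor genes or to the cells that use them formed a list of 14, all tested. Of these, NK cells were called higher for 3 and CD8+ T cells for 3, while 8 were not called (42.9% called, against 11.4% of all genes tested), with a median log2 fold change of -0.01. T-bet and eomesodermin are known to drive Il2rb. Tbx21, encoding T-bet, had 0, 11 and 0 counts in the CD8+ T libraries and 40199, 38755 and 33386 in the NK libraries (edgeR adjusted p = 0.0022). Eomes was higher in NK cells by 3.41 ± 0.48 (SE) on the log2 scale (adjusted p = 0.0081), with 825, 350 and 1553 counts in CD8+ T cells. Zeb2, a partner of T-bet, had 13, 0 and 0 counts in the CD8+ T libraries and 1259, 1699 and 1627 in the NK libraries (adjusted p = 0.044).

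Foxo1, known to drive Il7r in naive T cells, was higher in CD8+ T cells (log2 fold change -1.85 ± 0.40 SE, edgeR adjusted p = 0.036). Tcf7 (-3.20 ± 0.23 SE, adjusted p = 0.00074) and Lef1 (-3.20 ± 0.22 SE, adjusted p = 0.00066), factors of naive T cells, were higher there too. Gabpa, encoding the GABP subunit that binds the ETS site, had 1969, 477 and 721 counts in the CD8+ T libraries and 67, 230 and 176 in the NK libraries and was not called (log2 fold change -3.15 ± 0.85 SE, adjusted p = 0.061). Foxo1 lost its call without CD8+ T cell library 1 (adjusted p = 0.062) or 2 (0.066), or without NK library 1 (0.059), 2 (0.14) or 3 (0.15). Zeb2 lost it without CD8+ T cell library 2 (0.053) or whichever NK library was left out (0.14 to 0.15).

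**Figure D4:**
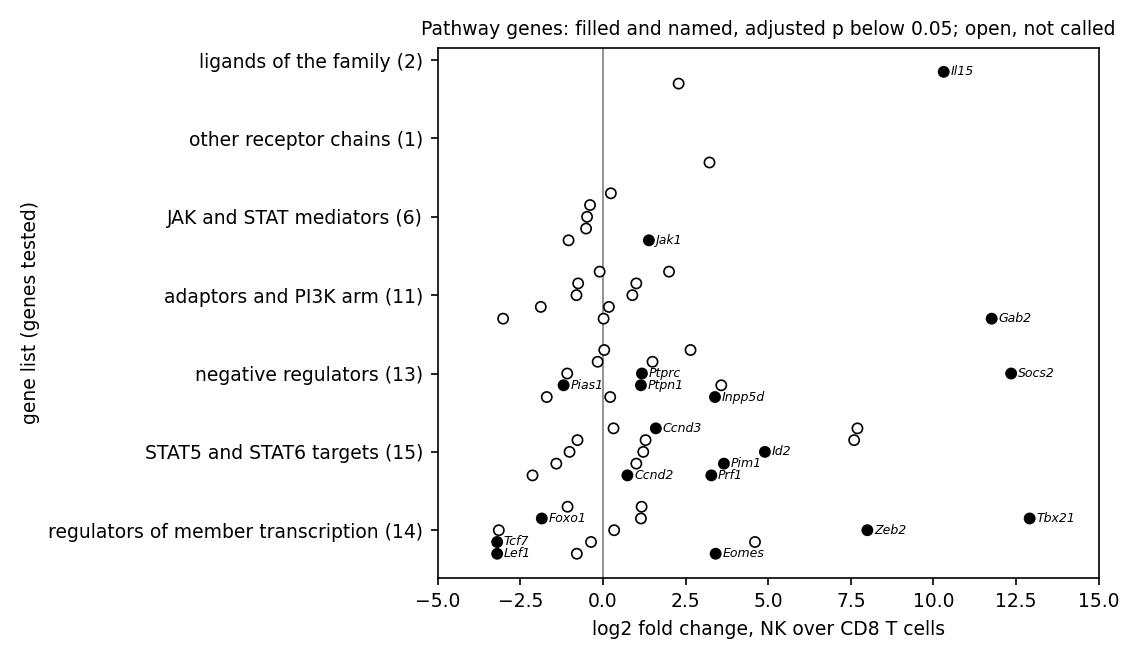
Log2 fold change, NK over CD8+ T cells (horizontal axis), of the genes tested in each of 7 lists around the receptors (vertical axis, number tested in brackets), with filled and named points for an adjusted p below 0.05 in edgeR and open points for genes not called. In all 19 of 62 genes are filled, against 11.4% of all genes tested, and 15 of them are higher in NK cells, against 6.24%. The lists were chosen with earlier results of these data known. The positions of Il15, Gab2 and Socs2, at 0 in every CD8+ T cell library, depend on the small count the fit adds.

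Markers of T cell states were set beside the receptors within CD8+ T cells. Markers of naive CD8+ T cells summed to normalised counts of 120804, 98138 and 109162, and those of memory CD8+ T cells to 36204, 19646 and 28268, most of it Ccl5. NK cells held 46232 to 55317 of the naive markers, with Dapl1 at 0, and 994252 to 1244257 of the memory markers, which NK cells also express. The NK cell markers summed to 1019, 1191 and 2012 in CD8+ T cells, against 479824 to 535247 in NK cells. The part of memory cells or NK cells in the Il2rb level of CD8+ T cells was not tested. Conversely, the CD8+ T cell markers summed to between 8235 and 13916 in NK cells, against 262042 to 297831 in CD8+ T cells, with Cd8b1 at 0. Within the NK libraries the sum was highest in library 2, where it was mostly Cd3d (6756) and Cd3g (6364), with Cd8a also at 0. That library also had the highest Il7r and Il21r levels. Trac, of the same list, was instead highest in library 3. Its normalised counts were 299.7, 369.4 and 376.7 in the NK libraries, against a mean of 35312 in CD8+ T cells. The part of the CD8+ T cell markers in the Il7r and Il21r levels of NK cells was not tested. Of the remaining lists, the 4 markers of CD4+ and regulatory T cells summed to at most 80.75 in the CD8+ T libraries and to 643.2, 42.72 and 197.8 in the NK libraries, mostly Zbtb7b in libraries 1 and 3. The 4 erythroid markers summed to at most 53.61 in any library. Macrophage and monocyte markers in NK cells summed to 859.2, 549.5 and 249.9, mostly Cd68, and dendritic cell markers to 752.2, 254.6 and 277.8, whereas innate lymphoid markers summed to at most 5.806 in CD8+ T cells.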

How the data were processed

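RNA was measured by Smart-seq2 sequencing with single reads of 50 bases. Per the labels and the study's methods, the authors used Trimmomatic 0.32 for trimming and STAR 2.7.1 for alignment to mm10, counted the reads per gene over exons with summarizeOverlaps in R 3.2.3 and deposited raw counts without reads that aligned to several places, so genes with near copies can be undercounted. Of 104 value columns 6 were used and 98 were not used here, and the 6 carry running numbers that match no sample number. Symbols and positions came from GENCODE on GRCm38 for 54079 of the 54232 gene identifiers, and promoters from RefSeq on GRCm38.p6.

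The fit to the counts was made with edgeR 4.0.16 under R 4.3.3 (robust quasi-likelihood test, TMM factors, a minimum mean of 10 normalised counts per gene, Benjamini-Hochberg over all 14062 genes tested, called at an adjusted p below 0.05), and the fit was tested on simulated data. Alternatives were RLE factors, DESeq2 1.42.0, no filter, limma 3.58.1 voom with a spread per cell type, and each library left out. The p-values measure the spread between pools of 3 mice. Ratios used counts per kilobase of all exons plus 0.5. The receptor genes, pathway lists and marker lists were chosen with earlier results of these data known. Some genes were left out of the lists and are not reported here, and others of the lists enter the counts without a value of their own. Named genes were the receptor genes, Tyk2, called genes of each list (at most 6), every gene of lists of up to 7, markers touching a result, and the 2 genes most correlated with each receptor gene. Bcl2, Cish, Lck, Gabpa, Mcl1, Myc, Pim2, Klrb1c, Tyrobp, Cd3e and Trac were named after their values were seen.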

Additional observations from a re-analysis of the deposited data

How the results depend on the processing

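The calls of Il2rb, Il7r and Il21r held in all 10 alternative fits, and 3 or 4 receptor genes were called in each. Over all genes 1600 were called (11.4% of those tested), against 3770 with DESeq2 and 476 to 1946 when 1 library was left out, the lowest counts (476 to 485) coming without an NK library. Of the 62 pathway genes tested 19 were called, against 30 with DESeq2 and 9 to 19 when 1 library was left out (9 to 10 without an NK library). The log2 fold change reversed for Il15ra (range -0.25 to 2.30) and for Stat3 (-0.78 to 0.10) when a library was left out, in both cases without CD8+ T cell library 1, and the log2 difference of Il4ra to Il2rg ran from -1.61 to 0.33 over the fits that leave out a library, being positive without CD8+ T cell library 3. The causes were not tested. Of 330 values for 33 single genes under the alternatives, 279 kept their direction and call, 40 lost the call, 9 gained it and 2 reversed. No paired analysis was possible, because the NK samples are numbered 5 to 7 and the CD8+ T cell samples 2 to 4, with no number shared. A difference between these sets of replicates thus cannot be told apart from one between the cell types. The columns used here also carry running numbers that match no sample number. The wild-type CD8+ T cell samples that share replicate numbers with the Tyk2-/- CD8+ T cell samples stayed unused. The comparison of Tyk2-/- with wild-type CD8+ T cells and its alternatives (replicate block, DESeq2, libraries left out) were therefore not run. A count of 3 or fewer was taken as not detectable, which limits Il2ra, most ligands and Il15ra in 1 CD8+ T cell library, and covers counting error only.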
